A study of Mus musculus with 20 samples.

Results

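Ribosomes of the cytosol are made of ribosomal RNA and a set of small and large subunit proteins. To follow the genes of these proteins in the mouse kidney, every gene was taken whose array symbol begins with Rpl or Rps and a digit, or with Rplp or Rpp and a digit, once the Rps6k kinases and pseudogenes were set aside. Only probe sets annotated to a single gene were used, and each gene was represented by its probe set with the highest mean log2 intensity. This gave 52 genes, of 12393 genes with a single-gene probe set. The name rule reaches beyond the ribosome. It held 41 ribosomal proteins (20 of the large subunit, 19 of the small subunit and the 2 stalk proteins Rplp0 and Rplp2), 5 paralogs or like genes (Rpl22l1, Rpl39l, Rpl3l, Rpl7l1 and Rps27l) and 6 genes of RNase P (Rpp14, Rpp21, Rpp25, Rpp25l, Rpp30 and Rpp40), the enzyme that trims the leader of precursor tRNAs and is no part of the ribosome. The rule left out 4 kinase genes and 2 pseudogenes.

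Total RNA of whole kidneys from Balb/c mice of about 10 weeks was hybridised to 20 Affymetrix M430A 2.0 arrays, 1 animal to an array, with 5 animals in each of 4 groups. Healthy males and healthy females were the controls, and diseased males and diseased females had received doxorubicin at 12 mg/kg intravenously and were examined on day 14. The sources used here do not say whether the controls had an injection. Animals are named by sex and number, and a prefix in some numbers (10- or 30-) marks a number series whose meaning the labels do not give. Doxorubicin, an anthracycline, injures the podocytes of the glomerulus in this strain, and a whole kidney is mostly tubule. A lower signal in such a mixture can come from fewer cells of a type or from less RNA per cell, which cannot be told apart.

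Ribosomal protein genes are transcribed at high rates in every cell, and their products are needed in nearly equal numbers, since they assemble into the same particle. Their mRNAs share a 5′ terminal oligopyrimidine tract (5′ TOP), a C at the cap followed by a run of C and T, through which mTOR signalling sets how much of the mRNA is translated. An array measures the mRNA and not that translation. Free Rpl5 and Rpl11 bind Mdm2 when ribosome assembly is disturbed, which links ribosome production to p53.

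The starts of 5 ribosomal protein genes described here are shown because the 5′ TOP tract is a feature of ribosomal protein mRNAs, with Rpp40 for contrast. The start of Rps20 is not shown. Each line gives the 15 bases before the annotated RefSeq start in lower case and the first 15 transcribed bases in capitals (GRCm38.p6).
Rpl38, chr11:114668565-114668594, plus strand: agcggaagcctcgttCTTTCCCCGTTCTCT
Rpl35, chr2:39005117-39005146, minus strand: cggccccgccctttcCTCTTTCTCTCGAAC
Rplp2, chr7:141447636-141447665, plus strand: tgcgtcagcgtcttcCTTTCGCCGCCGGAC
Rps24, chr14:24490663-24490692, plus strand: cccgcgctggggtccTTCCTTGCGCGTTGA
Rps19, chr7:24884577-24884606, plus strand: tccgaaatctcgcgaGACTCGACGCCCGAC
Rpp40, chr13:35906333-35906362, minus strand: gccaagaggcggtgcTCGCCTGGACTCCTG
The Rpl38, Rpl35 and Rplp2 starts open with C and a pyrimidine run of 8, 11 and 5 bases, respectively. The run at the first of the 2 annotated Rps24 starts had 6 bases and began with T, and the most upstream of the 3 Rps19 starts opened with G. On the transcribed strand, a C followed by 4 bases that are each C or T stood at the exact start in 8 of 42 windows of ribosomal proteins (19.0%; 36 of the 41 genes had a window) against 823 of all 32851 windows (2.51%). Within 5 bases of the start on either side it was found in 19 of the 42 (45.2%) and in 6027 of all windows (18.3%). An annotated start can lie some bases away from the cap, so these shares describe the annotation.

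Signals of different probe sets cannot be ranked as mRNA amounts, but each can be set against the background of the arrays. The 95% quantile of 13 Y-linked probe sets in the female kidneys, 4.42 on the log2 scale, was taken as that background. Of the 41 ribosomal proteins, 33 had a mean signal above 12, a level reached by 1287 of all 22626 probe sets. The probe sets of Rps29, Rpl37a and Rps28 had the highest means, at 15.08, 14.93 and 14.68. The other 8 (Rpl12, Rpl14, Rpl27a, Rpl37, Rpl39, Rps6, Rps25 and Rps27) had means from 2.88 to 9.49, with Rpl12 and Rps27 below background. Probe sets annotated to these genes together with pseudogenes or predicted genes had means of 13.69 (Rpl12), 14.54 (Rps27) and 15.24 (Rps6), and which of the annotated genes gave that signal cannot be told apart. Rpl39l, a testis-enriched copy of Rpl39, and Rpl3l, the muscle form of Rpl3, were below background at 2.29 and 2.61, as was Rpp25 at 2.27. Rps27l and Rpl22l1 had 12.90 and 12.42.

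**Figure D1:**
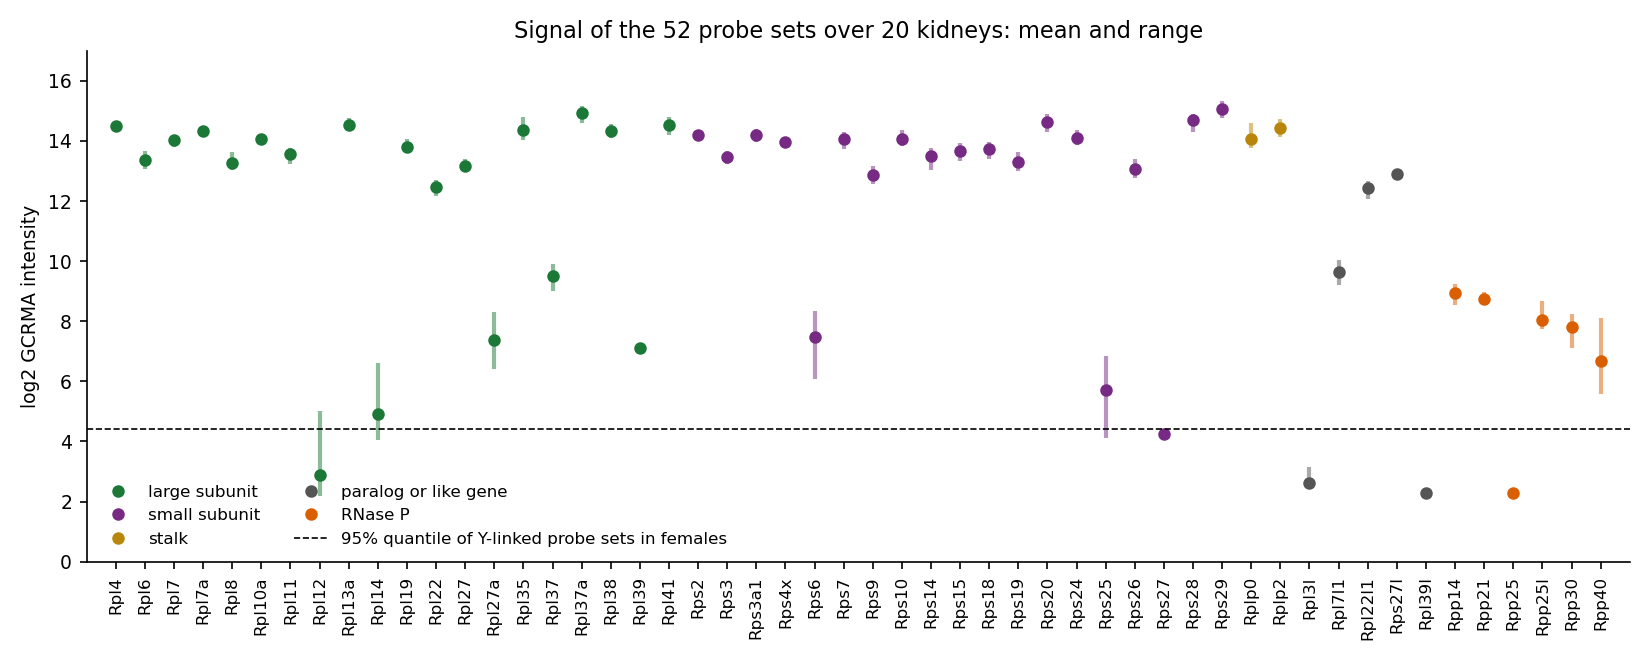
Log2 GCRMA intensity of the probe set of each of the 52 genes, with the mean of 20 kidneys as a point and the range as a bar, ordered by gene name within the groups. 33 ribosomal proteins lie above 12, and Rpl12, Rps27, Rpl39l, Rpl3l and Rpp25 lie below the dashed background line at 4.42.

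The bright ribosomal proteins varied little. Their SD over the 20 kidneys had a median of 0.14 against 0.20 for all probe sets above 12. The single-gene probe set of Rps2, which stood at 14.14 to 14.25 in all animals, had the smallest SD (0.03) of the 1287 probe sets. A brighter probe set shared with predicted genes (mean 14.87) had female minus male differences of −0.09 in control and −0.16 in doxorubicin kidneys. Neither passed (adjusted p = 0.54 and 0.18). On the single-gene probe set these differences were −0.01 and −0.02. After group means were removed, the correlation between 2 of the 33 genes over the 20 arrays had a median of 0.30 and was above 0 in 75.6% of 528 pairs. Between pairs of all probe sets above 12 the median was 7.7e-05. Such correlations are a description of arrays that share hybridisation and normalization.

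Some arrays stood apart in ways that bear on these genes. The 5′ probe set of 18S ribosomal RNA read 4.33 to 5.43 in 6 arrays (control males M12 and M13, control female FNo5 and doxorubicin males M7, M9 and M11) and 3.37 to 3.62 in the other 14. Among males these were the 5 animals without a prefix, so that the 18S signal and the number series cannot be told apart there. The 3′ signal of Gapdh exceeded its 5′ signal by 0.64 ± 0.47 (SD, n = 10) in females and by 0.21 ± 0.18 in males, on the log2 scale. For Actb the difference was 2.49 ± 0.65 in females and 1.67 ± 0.17 in males, and in doxorubicin kidneys it did not overlap between the sexes (2.28 to 3.11 against 1.51 to 1.89). The part of these measures in the results was not tested beyond the fits named here.

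The first comparison asked how healthy female and male kidneys differ. Ribosomal protein signals were on the whole slightly higher in females, while Rpp40 was much lower. No ribosomal protein passed an adjusted p of 0.003, a cutoff passed by 548 probe sets (2.42%), and of the 52 genes only Rpp40 did. The median female minus male difference of the 41 ribosomal proteins was 0.14 on the log2 scale, against −0.01 over all probe sets and 0.04 over those above 12. The female mean was higher for 37 of the 41, and for 40.1% of all probe sets and 55.6% of those above 12. At an unadjusted p under 0.05, 17 were higher and 0 lower, where 11.0% of all probe sets were higher and 8.95% lower. In 7 the 5 females lay above all 5 males, which held for 3.87% of all probe sets. Probe sets above 12 had larger shares, 24.2% higher at an unadjusted p under 0.05 and 11.0% with all females above all males, beside 15 and 7 of the 33 bright ribosomal proteins. Large and small subunit proteins had like medians, 0.13 and 0.14.

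Rpp40, a protein subunit of RNase P, read 8.10, 7.36, 7.67, 7.81 and 7.41 in control males M30-1, M13, M30-2, M30-5 and M12. In control females F1, F10-1, F10-2, F30-6 and FNo5 it read 6.17, 6.28, 6.04, 5.86 and 5.79. All females lay below all males, with a 3.13-fold lower signal (log2 difference −1.64 ± 0.17 SE, adjusted p = 5.7e-06). Of the other RNase P genes, Rpp14 differed by −0.20 (adjusted p = 0.29), and Rpp21, Rpp25, Rpp25l and Rpp30 by −0.01 to 0.22.

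Rps20, a protein of the small subunit head, read 14.57, 14.52, 14.29, 14.29 and 14.40 in the control males, in the order given above. The control females had 14.78, 14.89, 14.86, 14.68 and 14.61. The sexes did not overlap, yet the difference of 0.35 ± 0.07 fell just outside the cutoff (adjusted p = 0.0040). Rpl38, a large subunit protein whose loss of function in mice alters the axial skeleton, had 14.25, 14.12, 14.10, 14.15 and 14.21 in males and 14.43, 14.54, 14.50, 14.35 and 14.33 in females. Again no female was as low as any male (difference 0.27 ± 0.05, adjusted p = 0.0046). Rpl35, which lies at the exit of the peptide tunnel, was 0.45 ± 0.10 higher in females (adjusted p = 0.010), but FNo5 at 14.13 lay within the males. Without FNo5 and doxorubicin male M30-4, 6 of the 52 genes passed the cutoff instead of 1, Rpl35, Rpl38 and Rps20 among them.

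**Figure D2:**
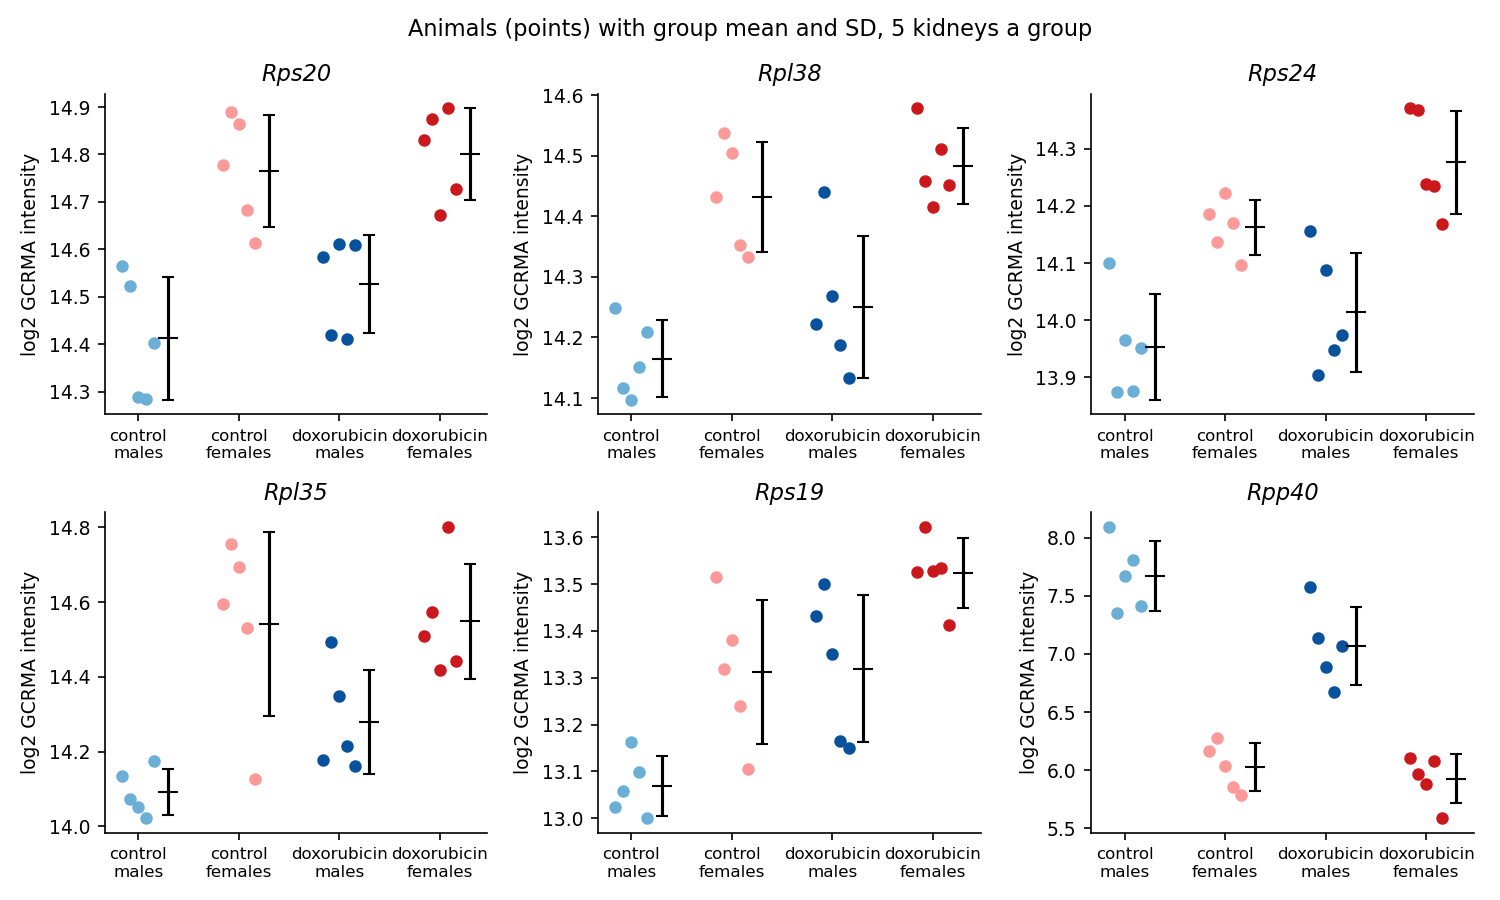
Log2 GCRMA intensity of 6 genes by group, with 1 point for each kidney and the mean and SD of the 5 kidneys beside them, on a separate scale for each gene. Rps20 and Rpl38 lie higher in control females than in control males without overlap, Rpp40 lies lower in females than in males in both conditions, and Rps19 is highest in doxorubicin females.

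In doxorubicin kidneys the sexes were compared again, in other animals. Rpp40 was once more the only gene of the 52 to pass 0.003, where 365 probe sets did (1.61%). It read 7.57, 7.14, 6.89, 6.67 and 7.07 in males M30-3, M30-4, M7, M9 and M11. Females F3, F4, F5, F10-3 and F10-4 had 6.11, 5.96, 5.88, 6.08 and 5.59. The groups did not overlap, and the signal was 2.21-fold lower in females (−1.14 ± 0.17, adjusted p = 4.0e-04). With only these 2 groups in the fit the adjusted p was 0.0068, outside the cutoff.

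The ribosomal proteins had a median difference of 0.07 against 0.01 over all probe sets and 0.04 over those above 12. The female mean was higher for 31 of 41, and for 63.2% of all probe sets and 56.9% of those above 12. At an unadjusted p under 0.05, 10 were higher and 0 lower, with 12.5% of all probe sets higher and 9.67% lower. In 4 of the 41 all females lay above all males, against 5.28% of all probe sets. Among probe sets above 12 the shares were 20.7% higher and 8.70% without overlap, beside 9 and 3 of the 33 bright ribosomal proteins. One of the 10, Rps27, was read on a probe set below background. Rps24, a small subunit protein known from Diamond-Blackfan anaemia in people, had 14.16, 13.90, 14.09, 13.95 and 13.97 in the males and 14.37, 14.37, 14.24, 14.23 and 14.17 in the females. The lowest female was just above the highest male (0.26 ± 0.05, adjusted p = 0.0066). Rpl38 was 0.23 ± 0.05 higher in females (adjusted p = 0.014) and Rps20 0.27 ± 0.07 (adjusted p = 0.024). Rps27l, a paralog of Rps27 and a p53 target, went the other way by −0.11 ± 0.03 (adjusted p = 0.043). Across the 33 bright ribosomal proteins the control and doxorubicin sex differences had a Pearson r of 0.77, a value that was 0.80 for all probe sets above 12.

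**Figure D3:**
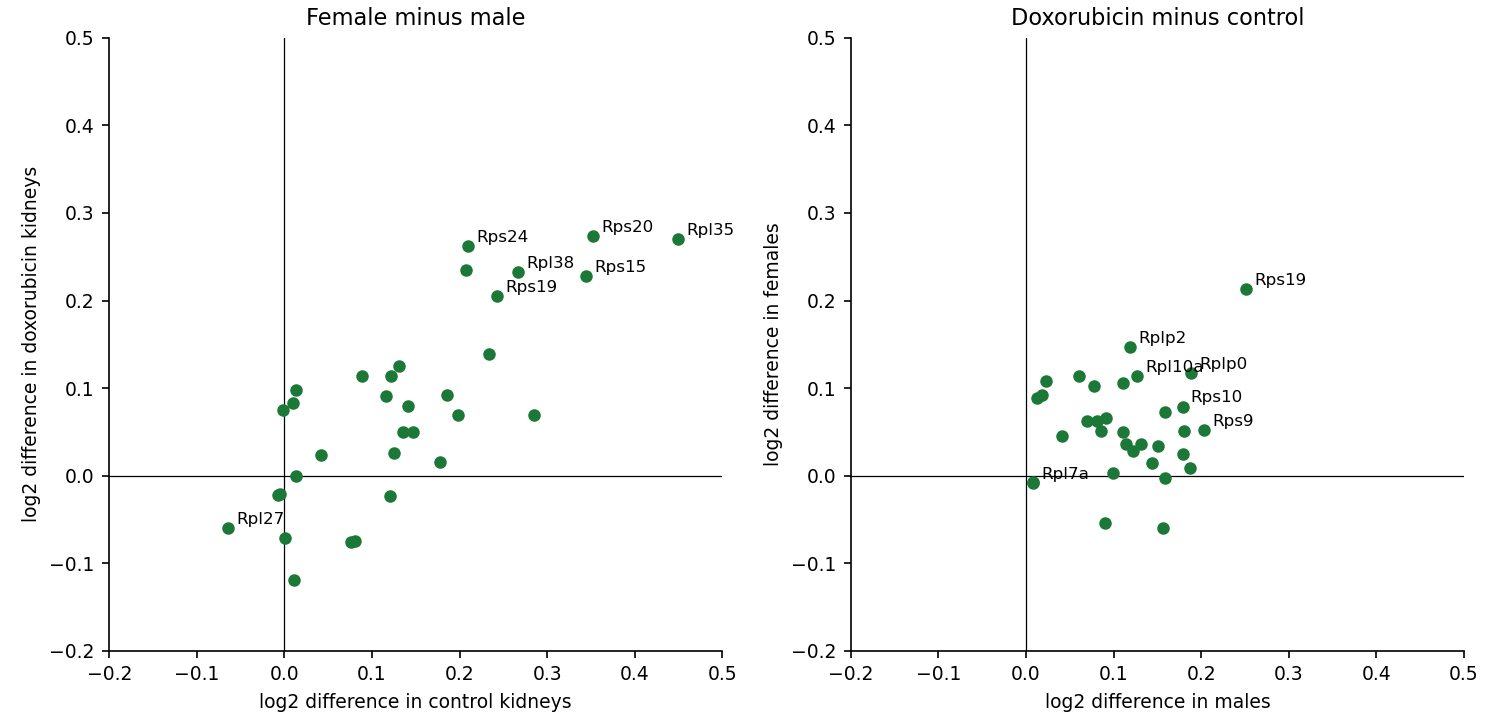
Log2 differences of the 33 ribosomal proteins with a mean above 12. On the left female minus male in control (x) and doxorubicin kidneys (y), with 23 of 33 genes above 0 on both axes, and on the right doxorubicin minus control in males (x) and females (y), with Rps19 farthest from 0 on both.

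Averaged over both conditions, with 10 animals of each sex, 1232 probe sets passed 0.003 (5.45%) and 5 of the 52 genes did. Of the 33 bright ribosomal proteins 4 passed, no larger a share than the 15.9% of probe sets above 12. This comparison was added after the data were seen. Rpp40 was 2.63-fold lower in females (−1.39 ± 0.12, adjusted p = 3.4e-07). Rpl38 (0.25 ± 0.04, adjusted p = 2.2e-04), Rps20 (0.31 ± 0.05, adjusted p = 3.2e-04), Rps24 (0.24 ± 0.04, adjusted p = 4.0e-04) and Rpl35 (0.36 ± 0.07, adjusted p = 0.0023) were higher. These are rises of 1.19-, 1.24-, 1.18- and 1.28-fold. All 4 were read on probe sets with the suffix _x_at, which 14 of the 41 ribosomal proteins had. Binding of other transcripts to these probe sets was not tested. For Rps20 the males ran from 14.29 through a median of 14.47 to 14.61 and the females from 14.61 through 14.80 to 14.90, without overlap. At an unadjusted p under 0.05, 19 of the 41 were higher and 0 lower, where 16.5% of all probe sets were higher and 13.0% lower. Rpl12 and Rps27, below background, were among the 19. Of the bright ribosomal proteins 16 of 33 were higher, beside 31.2% of probe sets above 12. With the Gapdh 3′ minus 5′ signal as a covariate, Rpl38, Rps20, Rps24 and Rpl35 stayed higher by 0.19, 0.24, 0.21 and 0.23, with adjusted p of 0.0037, 0.0062, 0.0076 and 0.040, and no longer passed. With the number series as a term, Rpl38 and Rps24 passed and Rps20 (adjusted p = 0.0082) and Rpl35 (0.025) did not. Rpl35 passed in 9 of 32 alternatives, Rps24 in 28, Rpl38 and Rps20 in 30 each and Rpp40 in 32.

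Several genes have more than 1 probe set, which gives a second reading of the same RNA. Rpl35 had 5 single-gene probe sets above background, and all were higher in females over both conditions, by 0.23 to 0.39. The 5 of Rps24 gave 0.24 to 1.09 and the 2 of Rps20 gave 0.28 and 0.31. Of 17 ribosomal proteins with several such probe sets, 15 had 1 sign throughout, and Rpl13a and Rpl27 did not. When probe sets shared with pseudogenes or predicted genes were let in and the brightest taken, 66 ribosomal protein genes could be read, 25 of them not among the 52. The median female minus male difference was then 0.14 in control and 0.10 in doxorubicin kidneys, with 59 and 55 of 66 higher. Of all probe sets 40.1% and 63.2% were higher, and 55.6% and 56.9% of those above 12 were. The 66 probe sets all had means above 12. Rplp1, the partner of Rplp2 in the stalk, and Rpl27a passed 0.003 in control kidneys (0.27, adjusted p = 0.0021 and 0.30, adjusted p = 0.0018). They were 2 of the 66, where 2.42% of all probe sets and 7.93% of those above 12 passed. Rpl3 and Rpl5 read 0.16 (adjusted p = 0.013) and 0.04 (adjusted p = 0.83), and Rpl10, an X-linked gene, 0.03 (adjusted p = 0.78). A pseudogene that matches the same probes cannot be told apart from its parent here.

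The median deviation of the 33 bright ribosomal proteins from their 20-array means gives 1 number for each kidney. It was −0.14, −0.02, −0.14, −0.20 and 0.01 in control males M30-1, M13, M30-2, M30-5 and M12. The 3 control males with the 30- prefix were the lowest of all 20. Control females ranged from −0.06 to 0.06, doxorubicin males from −0.05 to 0.13 and doxorubicin females from 0.02 to 0.15. Over all probe sets above 12 the same measure stayed within −0.03 and 0.04. M12 and M13 were also the control males with 18S 5′ signal.

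**Figure D4:**
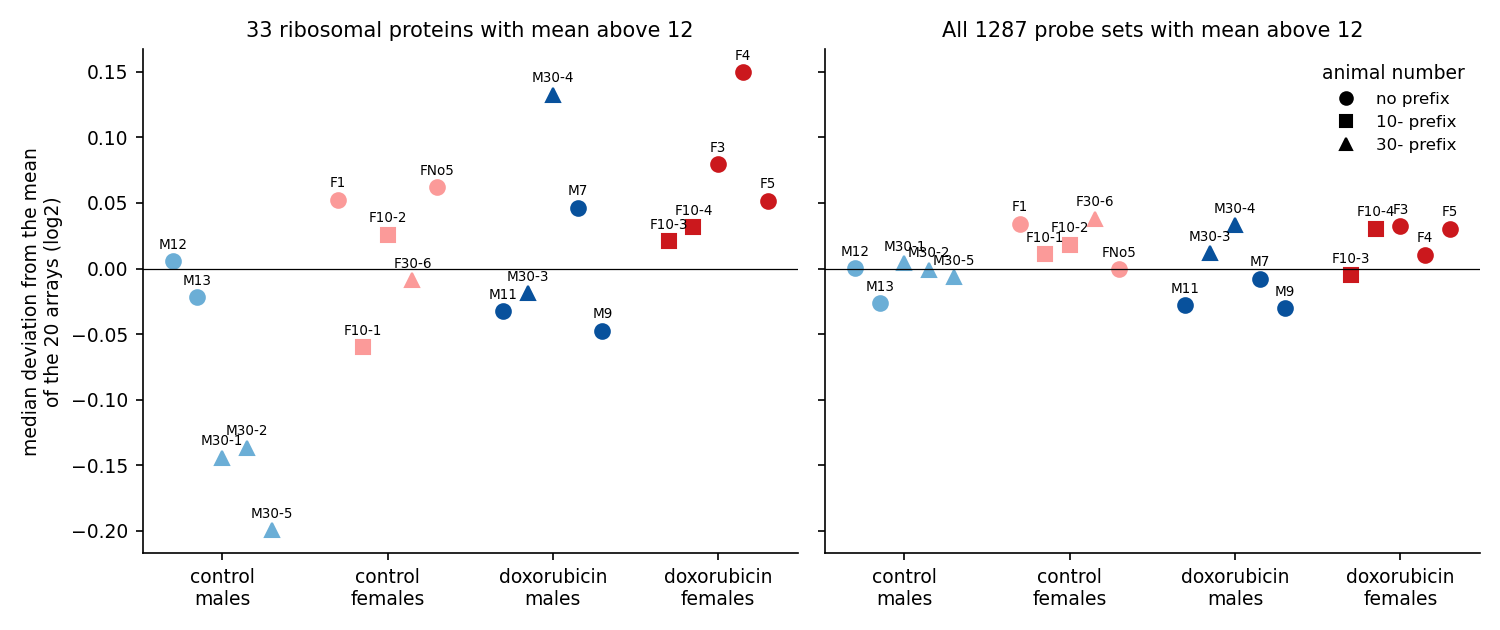
Median deviation (log2) from the 20-array mean for each kidney, over 33 ribosomal proteins on the left and all 1287 probe sets with a mean above 12 on the right, with the prefix of the animal number as the symbol. Control males M30-1, M30-2 and M30-5 lie at −0.14 to −0.20 on the left, and no kidney lies beyond −0.03 or 0.04 on the right.

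Within number series the control sex difference of the 33 genes had a median of 0.14 in the 30- series (1 female and 3 males). There 32 of 33 were higher in the female. Among control animals without a prefix (2 of each sex) it was 0.05, with 23 of 33 higher in females. In doxorubicin kidneys without a prefix (3 of each sex) it was 0.12, with 28 of 33 higher in females. The medians over all probe sets above 12 were 0.06, 0.04 and 0.06, in the same order. In the doxorubicin set, males M7, M9 and M11 had 18S 5′ signal and females F3, F4 and F5 did not. Sex and that signal cannot be told apart there. Among single genes, Rps20 was higher in females by 0.23, 0.30 and 0.25 in control animals without a prefix, the control 30- series and doxorubicin animals without a prefix, Rpl38 by 0.22, 0.19 and 0.29, and Rps24 by 0.23, 0.19 and 0.32. Rpp40 was lower in all 3, by −1.41, −2.0 and −0.89. These genes are given because of their sex difference over the same animals, so the series are not a separate check.

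The next question was whether doxorubicin changed these genes. In males 12 probe sets passed an adjusted p of 0.03 (0.0530%) and in females 9 passed 0.04 (0.0398%), none of them among the 52. By limma without adjustment, 7 of the 52 were higher and 1 lower in males at p under 0.05, and 2 were higher and 1 lower in females. Student's t-test, which the study used for its human samples, also gave 0 in both sexes after Benjamini-Hochberg. The mean of ribosomal proteins was higher with doxorubicin for 38 of 41 in males and 32 of 41 in females, against 38.4% and 59.2% of all probe sets. The medians were 0.11 and 0.05, against −0.01 and 0.00 over all probe sets. At an unadjusted p under 0.05, 6 of the 41 were higher and 0 lower in males, where 3.80% of all probe sets were higher and 3.73% lower. Of the bright ones 5 of 33 were higher, beside 7.61% of probe sets above 12. In females 2 were higher and 1 lower, where the shares were 2.20% and 2.53%. The 2 were Rps19 and Rps27, and the Rps27 probe set lay below background. In no ribosomal protein did the doxorubicin males lie wholly above the control males, which 0.743% of all probe sets did. Cell type markers also differed between the male groups. All 15 endothelial genes had higher means in doxorubicin males (median 0.31, 7 at an unadjusted p under 0.05, none past the cutoff). So had all 6 podocyte genes (median 0.78, 4 and none). The summed intensities of these 2 lists did not overlap, at 6774 to 7905 against 4459 to 6343 and at 2432 to 3796 against 1213 to 2391. In females the medians of the 2 lists were −0.24 and −0.41. Means were also higher in doxorubicin males for 17 of 20 leukocyte and 7 of 8 collecting duct genes (medians 0.64 and 0.23). They were lower for 8 of 10 proximal tubule and all 6 adipocyte genes (medians −0.15 and −0.28), with 3 adipocyte genes below background. The part of these markers was not tested.

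The male difference was not the same in the number series. In the 30- series (2 doxorubicin and 3 control males) the median of the 33 genes was 0.23, with 32 of 33 higher, and among males without a prefix (3 and 2) it was −0.01, with 16 of 33 higher. For females it was 0.04 without a prefix (3 and 2) and 0.03 in the 10- series (2 and 2).

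Rps19, the small subunit protein first tied to Diamond-Blackfan anaemia, had the largest difference among the bright genes in both sexes. It read 13.02, 13.06, 13.16, 13.10 and 13.00 in control males and 13.43, 13.50, 13.35, 13.17 and 13.15 in doxorubicin males. In females it read 13.52, 13.32, 13.38, 13.24 and 13.10 without and 13.53, 13.62, 13.53, 13.53 and 13.41 with doxorubicin. The groups overlapped in both sexes, with only M11 under the highest control male and only control female F1 above the lowest treated female. The differences were 0.25 ± 0.07 in males (adjusted p = 0.32) and 0.21 ± 0.07 in females (adjusted p = 0.67). They were 0.37 and 0.19 within the male series and 0.25 and 0.12 within the female ones. Averaged over the sexes, a comparison added after the data were seen, 5 probe sets passed 0.04 (0.0221%) and 5.72% had an unadjusted p under 0.05. Rps19 was 0.23 ± 0.05 higher (adjusted p = 0.20), and it passed only with the 18S 5′ signal as a term (0.23, adjusted p = 0.029).

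Rpp40 differed by −0.60 ± 0.17 in males (adjusted p = 0.26) and by −0.10 in females (adjusted p = 1.0). Rps27l differed by 0.10 ± 0.03 in males (adjusted p = 0.38) and 0.04 ± 0.03 in females (adjusted p = 1.0). Its 2 highest readings, 13.08 and 13.06, were those of M30-3 and M30-4. The Mdm2-binding Rpl11 differed by 0.09 in males and −0.05 in females, and Rplp0, a frequent reference gene, by 0.19 and 0.12, with M30-4 at 14.60 and the other doxorubicin males at 14.03 to 14.12.

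The responses of males and females were also tested against each other, and 1 of all probe sets passed (0.00442%), none of the 52. At an unadjusted p under 0.05 there were 3 of 52 and 6.33% of all probe sets. Rpp40 had the largest positive female minus male difference of responses of the 52, at 0.50. Rpl22l1, the paralog of Rpl22, was 1 of the 3. Its difference was 0.31 ± 0.13 (adjusted p = 0.72), with a 95% interval of 0.04 to 0.57 that is not adjusted for the number of genes. For Rpl22 itself the interval was −0.19 to 0.34.

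Gene groups with related functions were read with the same cutoffs. Of 74 mitochondrial ribosomal proteins, 3 passed as higher and 0 as lower in control females, beside 2.42% of all probe sets. The list as a whole had a median of −0.05, with 46 of 74 means lower, and with 16 lower and 8 higher at an unadjusted p under 0.05. The 3 were Mrpl23 (0.61), Mrpl52 (0.53) and Mrps25 (0.69). Of 68 ribosome biogenesis genes 2 were lower and 0 higher, near the share of all probe sets: Utp20, of the small subunit processome, by −1.32 (adjusted p = 2.9e-05) and Nhp2, of the box H/ACA particles, by −1.23 (adjusted p = 8.6e-05). Both were also lower in doxorubicin females, by −1.05 and −0.96. Of 35 initiation factors, Eif3f passed in control kidneys (0.42, adjusted p = 0.0015) and the X-linked Eif2s3x in doxorubicin kidneys (0.59, adjusted p = 0.0019), both higher in females. None of 7 elongation factors passed in any of the 4 comparisons, and Eef1a1, itself a 5′ TOP mRNA, differed by −0.10 and −0.09 between the sexes. Of 17 other mRNAs with a 5′ TOP start, Eif3f alone passed in control kidneys (median 0.03) and none in doxorubicin kidneys (median 0.01). Rpsa, a ribosomal protein outside the name rule, was 0.32 higher in control females (adjusted p = 0.043), and Fau 0.05 (adjusted p = 0.79).

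None of 16 genes of the mTOR pathway passed in a comparison of 2 groups. Over both conditions Sesn1, an inhibitor of mTORC1, was higher in females (0.72, adjusted p = 2.1e-04) and Mtor lower (−0.50, adjusted p = 8.9e-04). Of 20 p53 targets, Cdkn1a, the cell cycle inhibitor p21, rose in doxorubicin males (0.89, adjusted p = 0.015), on a probe set whose mean of 4.71 lay close to background, and 19 did not pass. The list had medians of 0.23 in males and 0.11 in females. At an unadjusted p under 0.05, 8 of the 20 were higher and 0 lower in males, where 3.80% of all probe sets were higher. In females 1 was higher and 0 lower, where 2.20% of all probe sets were higher. Bbc3, Tnfrsf10b, Psrc1 and Gtse1 were below background. With doxorubicin no gene of the ribosome biogenesis, initiation, elongation, mitochondrial or mTOR lists passed in either sex, and their medians ran from −0.03 to 0.13.

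**Figure D5:**
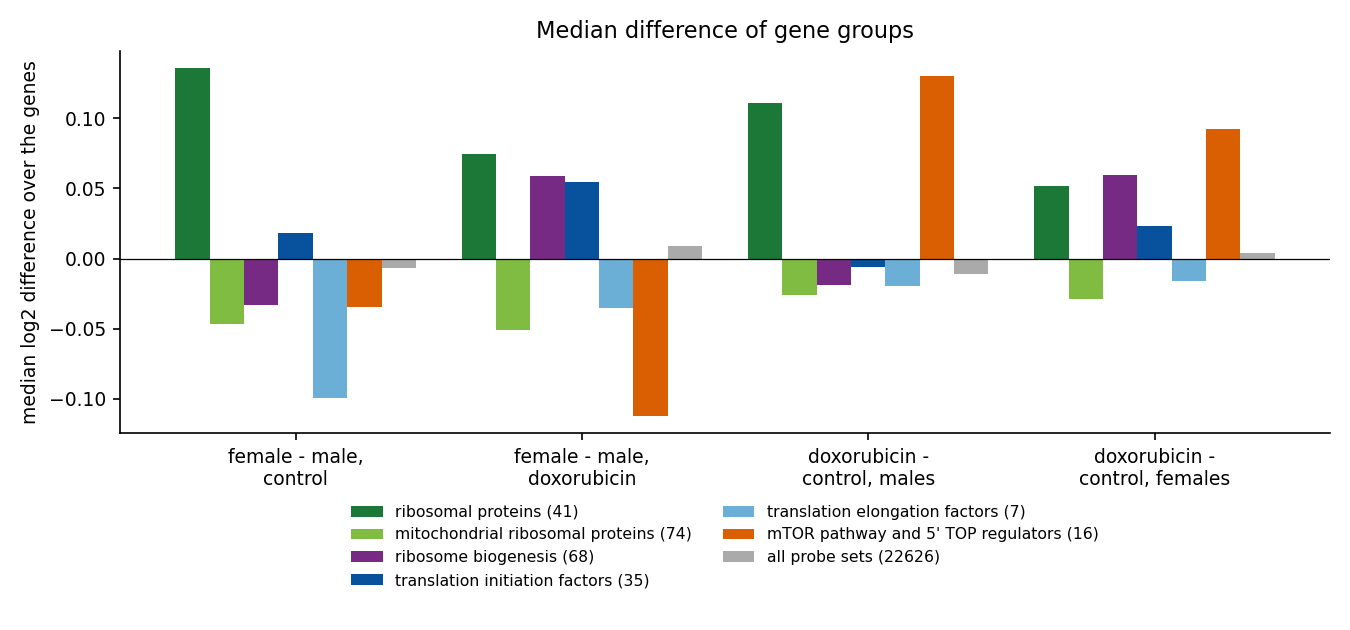
Median log2 difference over the genes of each group (number of genes in brackets) in 4 comparisons. The 41 ribosomal proteins have medians of 0.14, 0.07, 0.11 and 0.05, and the 74 mitochondrial ribosomal proteins lie below 0 in all 4.

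Cell type markers also differed between the groups. All 15 endothelial genes had higher means in control females than in control males (3 passed), with summed intensities of 7640 to 10250 against 4459 to 6343, and all 6 podocyte genes did (4 passed), with 3269 to 6102 against 1213 to 2391. Of the podocyte genes Nphs1 and Wt1 were below background. In doxorubicin kidneys the sums overlapped between the sexes for both lists. Red blood cell sums (4 genes, none passing) were 3714 to 6571 in doxorubicin females and 740 to 2283 in control females. In males they overlapped, at 810 to 7527 with doxorubicin and 483 to 1453 in controls. Of these genes Hba-a1 and Epb42 were below background. Loop of Henle and distal tubule sums were 84355 to 95440 in control females and 70894 to 82976 in control males, and 87463 to 96783 and 63739 to 82787 with doxorubicin, 7 genes with 1 passing in each condition. Proximal tubule sums overlapped, at 207920 to 241358 and 219444 to 241558 in control females and males. Collecting duct sums were 10098 to 15429 in control females and 6271 to 9391 in control males, without overlap (8 genes, 1 passed). Of the leukocyte genes, 6 of 20 lay below background and none passed in any of the 4 comparisons, and their sums were 5741 to 20851 in doxorubicin males and 4945 to 9737 in control males. All 5 adrenal cortex genes had means below background. The part of these markers in the ribosomal protein values was not tested.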

How the data were processed

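Whole kidney RNA was labelled from 1 ug per animal and hybridised to 20 arrays. The authors normalized the scans with GCRMA in Array Assist (version not given in the sources used here) and deposited linear intensity values without a filter. Log2 of these was taken for 22626 of 22690 probe sets, leaving out 64 array controls. One limma fit (version 3.58.1, R 4.3.3) held the 4 groups, with moderated variances (16 residual and 0.78 prior degrees of freedom) and Benjamini-Hochberg adjustment over all probe sets. Cutoffs of 0.003 between sexes and of 0.03 and 0.04 for doxorubicin in males and females followed the false discovery rates of the study. The 0.05 for the difference of responses, which the study did not test, was chosen here. Values after ± are standard errors for differences. The number of arrays limits the precision. Genes were named from the platform annotation, pseudogenes and promoter windows from RefSeq (GRCm38.p6). Signals near saturation can compress differences, which was not tested. The members and gene lists were chosen with earlier results of these data known. Named were genes past a cutoff, the 3 with the largest differences each way, the 3 brightest, dimmest, most and least variable, and genes chosen by role, of which not all are printed. Rps20, Rpl38, Rpl35, Rps24 and Rps19 are shown by animal, a choice made after their values were seen. Rps15a-ps6 and Rps4l were left out as pseudogenes. The study's permutation method (SAM) was not run. The fit was tested on simulated data.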

Additional observations from a re-analysis of the deposited data

Results flagged for a closer look

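In 12 of 132 groups of 5 tested (32 genes and the median of the 33 bright ribosomal proteins, in each of 4 groups), 1 animal lay far from the other 4, where chance flags about 1 in 20. In doxorubicin males, M30-4 read 14.60 for Rplp0 (others 14.03 to 14.12) and 2.19 for Rpl12 (others 2.61 to 2.68), a probe set below background, and M7 read 3.16 for Rpl3l (others 2.56 to 2.62), also below background. In control males, M30-1 read 9.06 for Rpl37 (others 9.45 to 9.59), M30-5 read 14.14 for Rplp2 (others 14.29 to 14.32) and M12 read 8.22 for Rpp30 (others 7.65 to 7.79).

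In control females, F1 read 14.59 for Rplp2 (others 14.42 to 14.47) and FNo5 read 12.13 for Rpl22l1 (others 12.33 to 12.41). In doxorubicin females, F10-3 read 6.14 for Rpl14 (others 4.79 to 5.04), F4 read 12.69 for Rpl22 (others 12.45 to 12.51), F3 read 8.78 for Rpp21 (others 8.71 to 8.73) and F5 read 12.84 for Rps27l (others 12.89 to 12.90).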

How the results depend on the processing

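Leaving out each animal in turn, the count of the 52 genes past the cutoff ran from 1 to 4 for the control sex difference, from 1 to 3 for the doxorubicin sex difference and from 4 to 10 over both conditions. Without FNo5, M30-4 and M30-1 in turn the control count was 4, 3 and 2, without M30-4 and M30-3 the doxorubicin count was 3 and 2, and without M30-4 the count over both conditions was 10. The counts of 1, 1 and 5 became 10, 5 and 14 at an adjusted p under 0.05, 6, 3 and 11 with array weights, and 6, 3 and 12 without FNo5 and M30-4. At an adjusted p under 0.05, 997 of all 22626 probe sets were higher and 795 lower in control kidneys. In doxorubicin kidneys these were 804 and 840, and over both conditions 2166 and 1711. Above 12, 164 and 128 of 1287 were higher and lower in control kidneys, beside 9 and 0 of the 33 bright ribosomal proteins. Over both conditions these were 269 and 208, beside 12 and 0. The shares of all probe sets with array weights, with animals left out and by the t-test are not given here. Student's t-test, the study's test for human samples, gave 11 in control and 7 in doxorubicin kidneys at an unadjusted p under 0.01. After adjustment it gave 0 in doxorubicin kidneys, as did the fit of those groups alone. With ribosomal proteins alone both single counts were 0, since Rpp40 is not one. With probe sets shared with pseudogenes the counts were 2, 0 and 12 of 66 genes, not of 52. In the same order, 2.42%, 1.61% and 5.45% of all probe sets passed, and 7.93%, 4.12% and 15.9% of those above 12. Without _x_at and _s_at probe sets the doxorubicin count was 2. Over both conditions the count was 3 with the number series as a term, 1 with the Gapdh covariate and 2 without the 6 arrays with 18S 5′ signal. The cause of these changes was not tested. With the 18S 5′ signal as a term, the doxorubicin response over both sexes had 1 gene (Rps19) in place of 0. Without those 6 arrays, which leave 2 doxorubicin males, the median response of the 52 genes in males was 0.18 in place of 0.10, and the difference of responses −0.15 in place of −0.04. For males this is the comparison within the 30- series, not a separate check.

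The other medians moved by less than the SD between animals of 0.0656, which is as large as some of the medians themselves. That of the doxorubicin sex difference (0.07) fell to 0.02 without the 18S arrays, 0.04 without F4 and 0.04 without _x_at and _s_at probe sets. Without M11 the median over both conditions was 0.06 in place of 0.09, and without F4 that of the female response 0.03 in place of 0.04 (0.02 with array weights). Centring arrays on their medians took the control sex and male response medians from 0.12 and 0.10 to 0.07 and 0.05, and turned that of the difference of responses to 0.01. The latter ranged from −0.07 to −0.02 with 1 animal left out. Rpp40 stayed lower in females in each of them. No gene passed for doxorubicin in either sex, or for the difference of responses, under any alternative. No paired analysis was possible because the groups share no replicate numbers that pair animals. Student's t-test was not run for the difference of responses, since it compares 2 groups. The 18S and pseudogene alternatives, and all those over both conditions or both sexes, were chosen after seeing the data. Of the 52 genes, 5 had a mean below background and give no reading of a change.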
